A study of Mus musculus with 12 samples.

Results

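Trav6 and Trav7 are large V gene families of the mouse T cell receptor (TCR) α chain with duplicated copies, and 66 of the 244 V region names in the α chain (TRAC) lists belonged to them. The members were all TRAC rows whose V region name began with a Trav6 or Trav7 gene and stayed within that family. They held 132614 of the 509702 TRAC clonotypes and 295786 of the 1145380 TRAC UMIs of 12 libraries. A clonotype is a distinct combination of V region, J region and CDR3 bases, and a UMI is a molecular tag that marks a cDNA molecule, counted here when at least 3 reads carried it. The names covered 29 genes, 15 of Trav6 and 14 of Trav7. Of these, 27 appeared on their own, and Trav6d-5 and Trav6n-5 appeared in joint names only, where the assignment left 2 or more genes open. In all, 25 of the 66 names had fewer than 50 UMIs and were not tested. A further 3 names that joined a Trav6 or Trav7 gene to another family held 5 UMIs and were left out.

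The libraries were made from RNA of T cells selected with CD8 microbeads from tumor, spleen and tumor-draining lymph node (tdLN) of wild-type mice that carried the orthotopic HNSCC Q1-2 tumor and were 6 to 8 weeks old per the methods. The tdLN labels do not repeat the CD8 selection. Mice received a control antibody (control IgG), the Fc fusion of the cytokine (IL-10-Fc), an antibody against CSF-1R (αCSF1R), or BF10, in which the antibody carries IL-10, in 3 doses at 3-day intervals, labelled as equivalent to 30 mg/kg. Where 4 values of a tissue are given, they follow this order. RNA of 3 mice was mixed into each library, and 1 library was made per tissue and treatment, so treatments could not be tested. Tissues were compared over their 4 libraries, 1 per treatment, with treatment fitted as a block. The p-values therefore measure the spread left between mixed libraries once tissue and treatment are fitted, tumor libraries included.

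A TCR α chain is made by joining a V segment to a J segment, and the CDR3 is the stretch across that junction, where bases are trimmed and added. The V segment also encodes the CDR1 and CDR2 loops that mostly touch the MHC molecule, so copies that differ by few bases can differ in little but their position. The middle of the mouse α locus was duplicated, and d or n in a gene name marks a copy. An α locus can rearrange more than once in a developing thymocyte, and each join removes the DNA between the joined segments, so later rounds use V segments farther from the J cluster and J segments farther from the V genes. High Traj numbers lie nearest to the V genes.

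All 29 genes lie on chromosome 14 of GRCm38 on the plus strand, from 52638515 to 53717291, and the 60 Traj genes follow from 54155005 to 54218842. Each V gene has a leader exon and a V exon, and the CDR3 begins in the last bases of the V exon. The germline CDR3 starts below, from the RefSeq annotation of GRCm38.p6, are those of the copies on which the results turn. Capitals mark bases that differ from the first gene of the same number. The annotated V exon of Trav7d-3 ends after 11 CDR3 bases, against 13 in Trav7-3. It is followed by cacacag rather than the cacagtg that follows Trav7-3, so its end may be annotated too early.

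Trav6-4, chr14:53454771-53454784: tgtgctctggttga
Trav6d-4, chr14:52753833-52753846: tgtgctctggttga
Trav6-5, chr14:53491609-53491622: tgtgctctgagtga
Trav6d-5, chr14:52795620-52795633: tgtgTtctgGgtga
Trav6n-5, chr14:53105331-53105344: tgtgctctgGgtga
Trav6-6, chr14:53517353-53517366: tgtgctctgggtga
Trav6d-6, chr14:52822346-52822359: tgtgctctgggtga
Trav6n-6, chr14:53133124-53133137: tgCgctctgAgtga
Trav6-7-dv9, chr14:53710406-53710419: tgtgctctgagtga
Trav6n-7, chr14:53319271-53319284: tgtgctctgGgtga
Trav7d-2, chr14:52684460-52684472: tgtgcagcaagca
Trav7d-3, chr14:52744828-52744838: tgtgcagtgag
Trav7-4, chr14:53461722-53461738: tgtgcagctagtgagca
Trav7n-4, chr14:53091859-53091875: tgtgcagTtagtgagca
Trav7-6, chr14:53717279-53717291: tgtgcagtgagca
Trav7d-6, chr14:53020979-53020991: tgtgcagtgagca
Trav7n-6, chr14:53325196-53325208: tgtgcagtgagca

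Copies were close in sequence. Pairs of V exons with the same number differed by 0 to 39 bases in Trav6 (11 pairs, median identity 97.3%) and by 0 to 14 bases in Trav7 (11 pairs, 97.9%), against a median identity of 79.2% and 85.5% between different numbers. In 3 pairs the V exons were identical over their whole length, and the lists still named the copies apart. Trav6-6 alone had 2 clonotypes and its identical copy Trav6d-6 had 7902. Trav7d-5 alone had 4 and Trav7n-5 had 5069. Trav7d-6 alone had 608, Trav7n-6 had 3436, and their joint name had 1708. The germline reference that separated them is not given in the sources used here, and values of these names are uncertain as values of genes.

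The names were checked against the germline over the first 10 bases of the CDR3. Of the 38 names with at least 100 clonotypes, 36 had as their commonest start the germline of a gene in the name. Many genes share a start, as Trav6-4, Trav6d-4, Trav6-6, Trav6d-6, Trav6d-7, Trav6n-5 and Trav6n-7 do, and a joint name could match any of its genes. A match therefore does not tell copies apart. The exceptions were both names of number 5. None of the 1166 clonotypes named Trav6-5 carried the RefSeq start of Trav6-5, and 1080 of them (92.6%) carried tgtgttctgg, the start of Trav6-1, Trav6-2 and Trav6d-5. In the joint name Trav6d-5/Trav6n-5, 58.8% of clonotypes carried tgtgctctga, which RefSeq gives to Trav6-5 and Trav6-7-dv9. These names are used below as listed.

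TRAC UMIs ran from 23650 (tumor αCSF1R) to 137078 (tdLN IL-10-Fc) per library. Intervals printed with shares are 95% Wilson intervals and cover counting error only. The tumor control IgG and αCSF1R libraries listed 9468 and 2430 TRAC clonotypes, against 38233 and 55103 in the IL-10-Fc and BF10 tumors. The tdLN αCSF1R and BF10 libraries had few reads per UMI, with 8.31% and 6.49% of UMIs at 7 or more reads against 30.8% to 73.3% elsewhere, and 71.9% and 74.7% of their TRAC clonotypes rested on 1 UMI. Transcripts of γδ chains, which mark another T cell type, took 4.96% to 6.34% of all UMIs in tdLN and 0.677% to 2.30% in spleen. In tumor they took 4.27% (control IgG), 0.873% (IL-10-Fc), 8.93% (αCSF1R, the highest of all libraries) and 0.898% (BF10). CD8 itself was not measured. In such bulk RNA, fewer cells with a chain and less TCR RNA per cell cannot be told apart.

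Both families together took 23.5% to 27.0% of TRAC UMIs in tumor, 23.7% to 25.0% in spleen and 27.5% to 29.1% in tdLN. Trav6 took 9.81%, 9.59%, 10.01% and 10.8% of TRAC UMIs in the 4 spleens. In tdLN it took 11.3%, 10.9%, 12.6% and 13.0%, and in tumor 12.9%, 9.74%, 6.94% and 10.2%. Every tdLN library lay above every spleen library, while the tumors spread from below the lowest spleen to just under the highest tdLN library.

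Trav7 took 14.5%, 14.1%, 15.0% and 13.8% of TRAC UMIs in spleen. Its tdLN shares were 16.8%, 16.6%, 16.5% and 14.8%, and its tumor shares were 14.03%, 16.6%, 18.7% and 13.3%. The BF10 tdLN fell below the αCSF1R spleen, so the groups overlapped. By edgeR's quasi-likelihood test on UMIs, with treatment as a block and all 12 libraries, neither family passed in tdLN against spleen. Trav6 had a log2 fold change of 0.25 (SE 0.15, adjusted p = 0.259) and Trav7 one of 0.17 (SE 0.12, adjusted p = 0.297). The test called 0.00% of the 21 families, with 6 families and neither member at an unadjusted p under 0.05, and DESeq2 called 3 families, again without either. Fitted without the tumor libraries, an alternative chosen after the values were seen, the same contrast passed for Trav6 (0.25, adjusted p = 0.00209) and Trav7 (0.17, adjusted p = 0.00713), among 13 of the 21 families (61.9%).

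**Figure D1:**
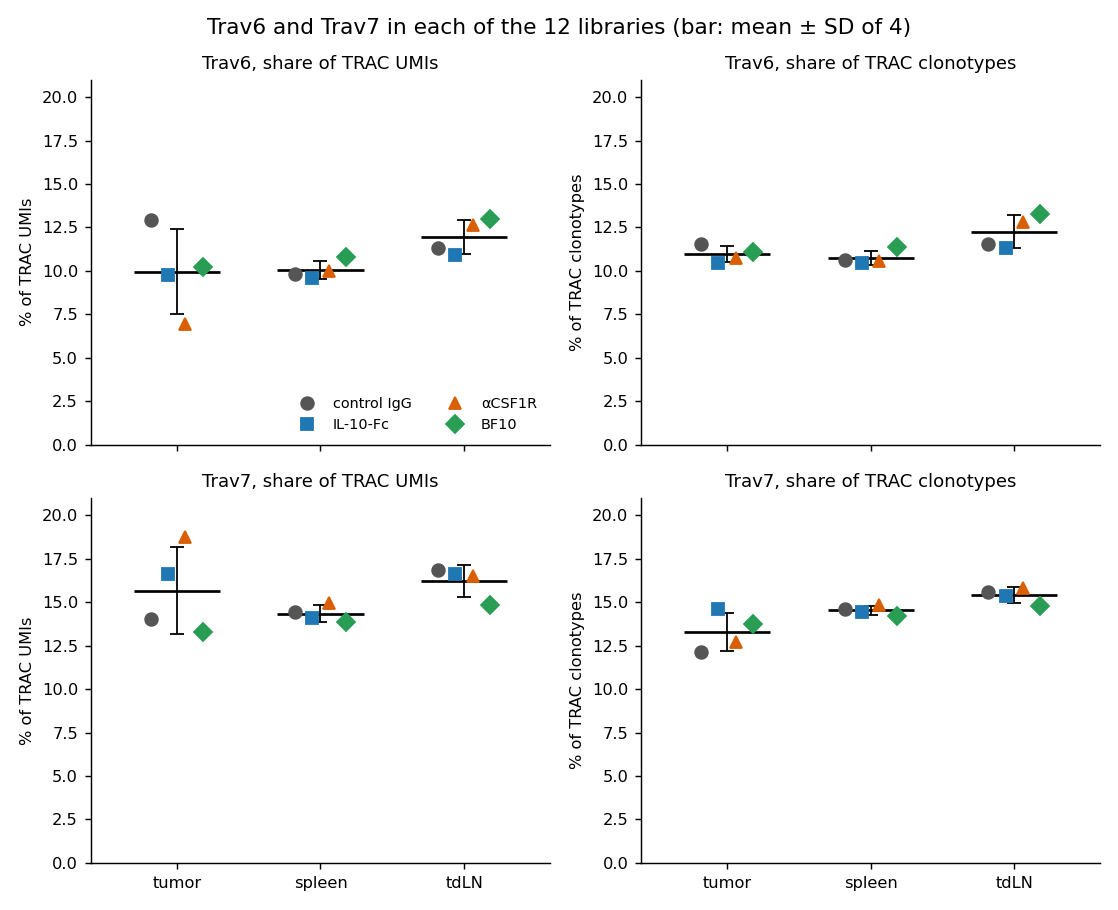
Share of TRAC UMIs (left) and of TRAC clonotypes (right) of Trav6 (top) and Trav7 (bottom), in percent. Each point is 1 library, shaped and coloured by treatment, and black bars give the mean ± SD of the 4 libraries of a tissue; tumor UMI shares spread from 6.94% to 12.9% for Trav6 and from 13.3% to 18.7% for Trav7, wider than their clonotype shares.

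By clonotypes, where each counts once, the tumors spread less. Trav6 took 10.7%, 10.4%, 10.6% and 11.4% of TRAC clonotypes in spleen, 11.6%, 11.3%, 12.8% and 13.3% in tdLN, and 11.5%, 10.5%, 10.7% and 11.1% in tumor. The IL-10-Fc tdLN lay just below the BF10 spleen, and the 2 highest shares were those of the tdLN libraries with few reads per UMI. Trav6 clonotypes rose in tdLN over spleen by a log2 fold change of 0.19 (SE 0.06, adjusted p = 0.0104, edgeR quasi-likelihood), in a test that called 57.1% of the 21 families and 23.8% as higher. It called 5 families higher and 7 lower, which became 8 and 5 with TMM factors. The call was lost without the tdLN αCSF1R library (0.15, adjusted p = 0.0792), without the tdLN BF10 library (0.16, adjusted p = 0.0596) and without both (0.10, adjusted p = 0.347).

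Trav7 took 14.6%, 14.5%, 14.8% and 14.2% of TRAC clonotypes in spleen, 15.6%, 15.4%, 15.8% and 14.8% in tdLN, and 12.1%, 14.6%, 12.7% and 13.7% in tumor. Only the BF10 tdLN overlapped the spleens, by a narrow margin. Its tdLN against spleen difference was 0.08 on the log2 scale (SE 0.06, adjusted p = 0.236), and it passed with TMM factors (0.19, adjusted p = 0.0251) and without the tumor libraries (0.08, adjusted p = 0.0182), both of which called 61.9% of the families. In tumor against spleen, edgeR called 0.00% of families on either readout, with 3 families by UMIs and 2 by clonotypes at an unadjusted p under 0.05, neither family among them, and 0 by DESeq2. The Trav6 difference was -0.03 by UMIs, which turned to 0.03 with TMM factors and 0.17 with DESeq2, and 0.03 by clonotypes, and that of Trav7 was 0.12 (adjusted p = 0.583) and -0.12 (adjusted p = 0.538).

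In spleen, original Trav6 genes held 10.4% to 11.3% of Trav6 clonotypes over the 4 libraries, D copies 19.4% ± 1.34 (SD, n = 4), N copies 35.2% ± 0.997 and joint names 34.4% ± 1.01. In Trav7, D copies led with 47.0% ± 1.02, and originals held 12.5% ± 0.648, N copies 13.5% ± 0.625 and joint names 27.0% ± 1.28. The classes of a family, by the names as listed, thus stood in a different order in Trav6 and Trav7. Joint names held 22.5% of the members' UMIs and 30.5% of their clonotypes over all libraries, so the original, D and N shares are of what was listed under 1 gene. Much of this came under names with an identical copy. Over all libraries, Trav6d-6 held 7902 of the 10854 D copy clonotypes of Trav6. Trav7n-5 and Trav7n-6 held 5069 and 3436 of the 9914 N copy clonotypes of Trav7. For these names the V exon sequence cannot tell the classes apart.

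In tdLN the make-up by clonotypes was close to that of spleen, with N copies at 34.2% ± 1.31 of Trav6 and D copies at 48.9% ± 1.75 of Trav7. The tumors departed from it mainly by UMIs. Original genes took 28.5% of Trav6 UMIs in the control IgG tumor against 9.26% to 11.3% in the other tumors and 10.1% to 10.2% in spleen. N copies took 31.7% and 35.8% of Trav7 UMIs in the control IgG and αCSF1R tumors against 12.1% and 12.5% in the IL-10-Fc and BF10 tumors. By clonotypes those N copies held 17.6% and 18.4% of Trav7 in the former pair of tumors and 11.9% and 13.2% in the latter.

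**Figure D2:**
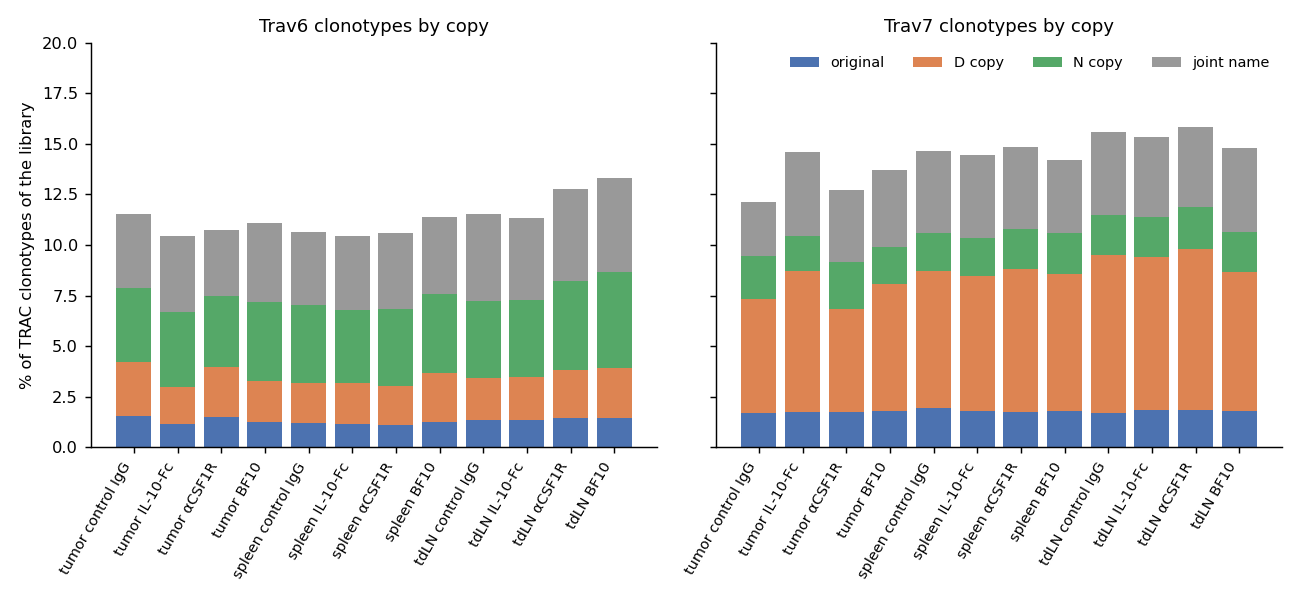
Clonotypes of Trav6 (left) and Trav7 (right) in percent of the TRAC clonotypes of each of the 12 libraries, stacked by original gene, D copy, N copy and joint name. D copies make the largest block of Trav7 in every library, while N copies and joint names make the largest blocks of Trav6.

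A few names carried most of each family. Trav7d-2, the leading name, took 4.81%, 4.51%, 5.51% and 4.68% of TRAC UMIs in spleen, 6.95%, 6.88%, 6.46% and 5.09% in tdLN, and 2.40%, 6.41%, 6.37% and 4.03% in tumor. The tdLN and spleen ranges overlapped only through the BF10 tdLN and the αCSF1R spleen, and the control IgG tumor was the lowest of all. By clonotypes Trav7d-2 held 3.76% to 4.23% in spleen and 4.26% to 5.06% in tdLN, without overlap. It did not pass the test on either readout.

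Trav7d-3, the next Trav7 name, took 2.37% to 2.58% of TRAC UMIs in spleen, 1.77% to 2.36% in tdLN and 1.14% to 2.92% in tumor. Trav7-5, an original gene, took 1.01% to 1.28% in spleen, 1.16% to 1.21% in tdLN and 0.672% to 1.23% in tumor. Of the Trav6 names, Trav6n-7 led with 2.43% to 2.59% in spleen, 2.66% to 3.33% in tdLN and 1.51% to 2.51% in tumor. These 3 names kept tight ranges in spleen, and Trav6n-7 was higher in every tdLN than in any spleen by UMIs and by clonotypes. Trav6d-6 took 1.60% to 2.21% in spleen, 1.70% to 2.01% in tdLN and 1.64% to 3.95% in tumor, where the control IgG library stood highest.

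Between tdLN and spleen the clonotype test called 6 of the 40 member names tested (15.0%), against 25.2% of all 147 V region names. It called 5 members higher, against 11.6% of all names, and 1 lower, against 13.6%. Over all names 17 were higher and 20 lower, which became 20 and 15 with TMM factors, with 7 members higher and 1 lower. Member names had a median log2 fold change of 0.06 and all names one of -0.05. The largest rise was that of Trav6-4, with 127, 135, 102 and 182 clonotypes in spleen and 188, 230, 184 and 190 in tdLN. As shares, these were 0.246%, 0.217%, 0.250% and 0.314% in spleen against 0.404%, 0.363%, 0.427% and 0.488% in tdLN, without overlap. The log2 fold change was 0.71 (SE 0.22, adjusted p = 0.0336).

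Trav7d-6 had the next largest rise, from 0.0949%, 0.0852%, 0.106% and 0.109% of TRAC clonotypes in spleen to 0.155%, 0.156%, 0.148% and 0.159% in tdLN. These shares rest on 43 to 63 clonotypes per spleen library and 62 to 99 per tdLN library, and the log2 fold change was 0.66 (SE 0.20, adjusted p = 0.0336). The joint name Trav6d-5/Trav6n-5 was the most abundant of the names that rose, at 1.94%, 1.92%, 1.93% and 1.96% in spleen and 2.59%, 2.38%, 2.72% and 2.50% in tdLN. Its spleen shares were nearly equal and its lowest tdLN share lay well above them (log2 fold change 0.40, SE 0.10, adjusted p = 0.00832). Trav6d-4, whose CDR3 start equals that of Trav6-4, rose from 0.204% to 0.243% in spleen to 0.281% to 0.315% in tdLN (0.39, SE 0.12, adjusted p = 0.0336). Trav7-4/Trav7d-4 rose from 0.649% to 0.778% to 0.843% to 0.952% (0.29, SE 0.09, adjusted p = 0.0347).

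The joint name Trav7d-2/Trav7d-3 was the member that fell. It held 0.130%, 0.175%, 0.233% and 0.143% of TRAC clonotypes in spleen and 0.112%, 0.0963%, 0.0695% and 0.0720% in tdLN, or 28 to 61 clonotypes per tdLN library, and the tissues did not overlap. The log2 fold change was -0.94 (SE 0.23, adjusted p = 0.00832). Its genes are the 2 leading Trav7 names when assigned alone, and the joint name holds chains that were not placed between them. Trav7d-3 alone held 2.17% to 2.36% in spleen and 1.78% to 2.12% in tdLN.

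None of the 6 calls held in all 24 alternatives run for each. Trav6d-5/Trav6n-5 passed in 22 of them, Trav7d-2/Trav7d-3 in 20, Trav6-4 in 15, Trav7d-6 in 14, and Trav6d-4 and Trav7-4/Trav7d-4 in 10 each, always in the same direction. Without the tdLN αCSF1R and BF10 libraries no member was called, nor any of the 143 names tested, with 30 names at an unadjusted p under 0.05. Without the tumor libraries 13 of 39 members were called, against 38.9% of all names, and without treatment as a block 10 of 40, against 30.6%. With UMIs of at least 7 reads the balance turned, to 4 members higher and 7 lower of 37, against 14 and 23 of all 133 names. Leaving out the control IgG tumor gave 11 member calls, against 33.3% of all names. There were 3 without the control IgG tdLN (15.8%), 2 without the control IgG spleen (14.5%), the IL-10-Fc spleen (11.7%), the αCSF1R tdLN (14.5%) or the BF10 tdLN (13.6%), and 1 without the αCSF1R spleen (14.5%). Leaving out any of the other 5 libraries gave 4 to 9 member calls, against 17.4% to 29.9%. Shares did not overlap between tdLN and spleen for 9 members that were higher in tdLN and 3 that were lower, against 15.0% and 19.7% of all names. By UMIs these counts were 8 and 3, against 11.4% and 17.4%.

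**Figure D3:**
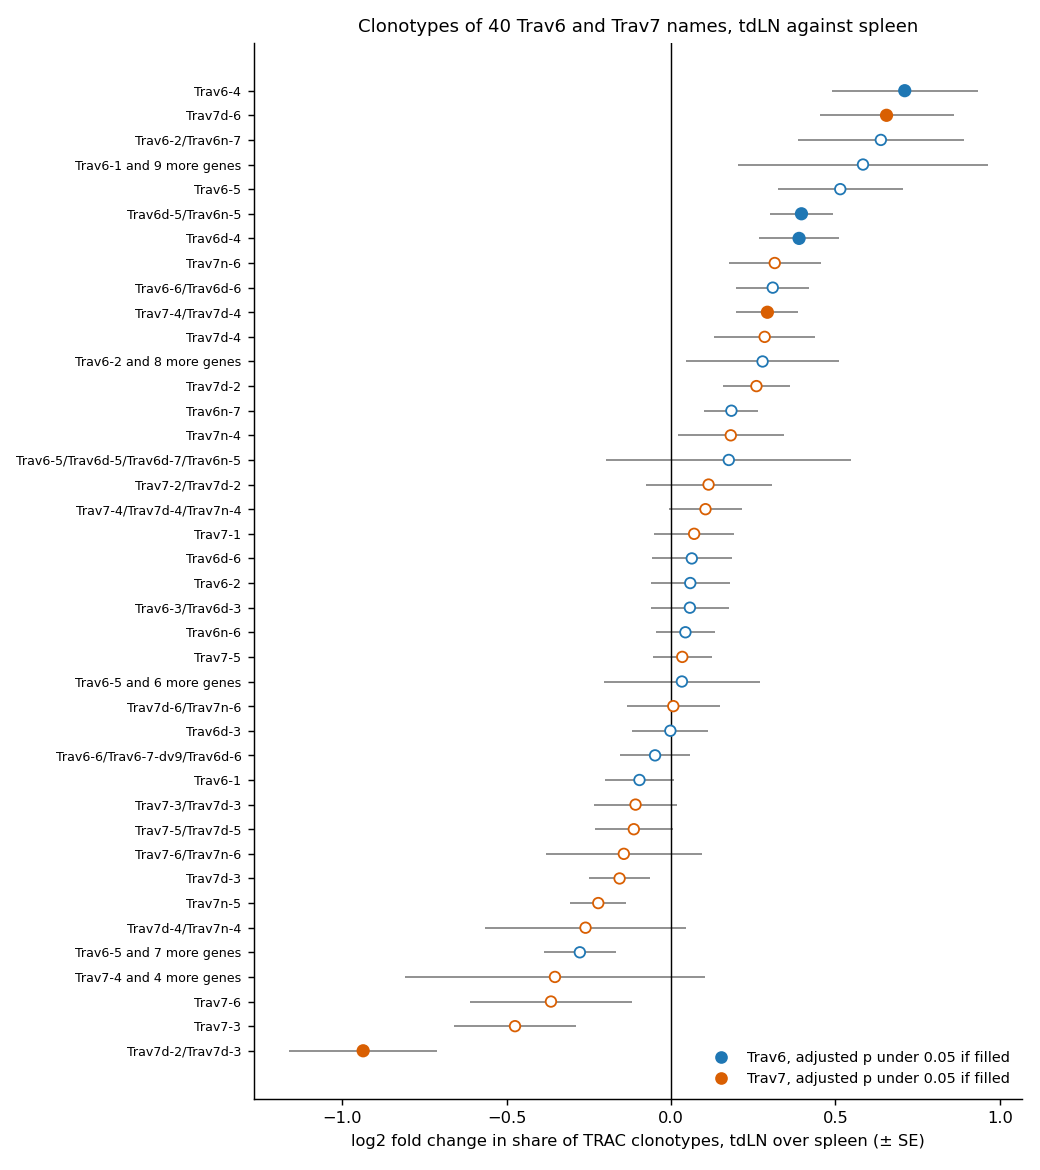
Log2 fold change in share of TRAC clonotypes, tdLN over spleen, for the 40 Trav6 (blue) and Trav7 (orange) names tested, with bars of 1 SE; filled points had an adjusted p under 0.05. The filled points are Trav6-4, Trav7d-6, Trav6d-5/Trav6n-5, Trav6d-4 and Trav7-4/Trav7d-4 to the right of 0 and Trav7d-2/Trav7d-3 to the left.

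By UMIs, 0.00% of 149 names were called by edgeR in tdLN against spleen, with 9 names and 0 members at an unadjusted p under 0.05. In simulated counts this test found 13.5% of 2-fold changes by UMIs, so changes of that size could be missed. DESeq2 called 9 names, 1 of them a member. Without the tumor libraries edgeR called 38 of 148 names, among them 10 members, 9 higher and 1 lower. In tumor against spleen, 0.00% of names were called by UMIs (11 names and 4 members at an unadjusted p under 0.05) or by clonotypes (5 names and 2 members), and DESeq2 called 0 on both readouts. The median log2 fold change by UMIs was -0.32 over members and -0.31 over all names, and with DESeq2's size factors it was -0.02 and 0.01.

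Single clonotypes made up much of the tumor UMIs of several names. The 3 largest Trav6 or Trav7 clonotypes of each tumor library follow, with capitals for bases found in neither the annotated germline V nor J segment of the assigned names. In the Trav7d-3 chain the first capital may be a germline base, given the annotated end of that V exon. Counts in other libraries are those under the same V region name.

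Control IgG, Trav6-4 with Traj23: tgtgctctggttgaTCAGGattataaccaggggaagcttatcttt
Control IgG, Trav7d-4 with Traj32: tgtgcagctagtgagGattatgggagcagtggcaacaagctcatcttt
Control IgG, Trav7n-5 with Traj21: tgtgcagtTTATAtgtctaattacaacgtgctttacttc
IL-10-Fc, Trav7d-2 with Traj22: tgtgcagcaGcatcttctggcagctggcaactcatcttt
IL-10-Fc, Trav7n-4 with Traj22: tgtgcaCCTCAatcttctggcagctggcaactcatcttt
IL-10-Fc, Trav7d-3 with Traj31: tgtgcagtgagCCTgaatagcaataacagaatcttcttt
αCSF1R, Trav7n-6 with Traj30: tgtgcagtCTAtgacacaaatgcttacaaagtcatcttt
αCSF1R, Trav7d-2 with Traj33: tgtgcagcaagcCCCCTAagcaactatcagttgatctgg
αCSF1R, Trav7-1 with Traj26: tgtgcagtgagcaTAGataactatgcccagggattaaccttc
BF10, Trav7d-2 with Traj9: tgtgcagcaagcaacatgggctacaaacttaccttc
BF10, Trav7-5 with Traj27: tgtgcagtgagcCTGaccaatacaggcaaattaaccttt
BF10, Trav6d-6 with Traj30: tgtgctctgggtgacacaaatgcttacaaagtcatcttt

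In the control IgG tumor, the Trav6-4 clonotype had 1967 UMIs, or 2.46% of TRAC UMIs (2.36% to 2.57%), and it made up 90.3% of the Trav6-4 UMIs of that library. It was listed in no other library under this name. The Trav7d-4 clonotype had 1308 UMIs (1.64%) there, and 2 in the spleen and 1 in the tdLN of the same treatment. The Trav7n-5 clonotype had 1165 UMIs (1.46%) and appeared only there. Trav6-4 took 2.73% of TRAC UMIs in this tumor against 0.124% to 0.212% in the other tumors, whereas its 64 clonotypes were 0.676% of TRAC clonotypes.

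In the αCSF1R tumor, the Trav7n-6 clonotype held 1406 UMIs, 5.95% of TRAC UMIs (5.65% to 6.25%), 23.2% of the members' UMIs and 94.6% of those of Trav7n-6. It held rank 2 among all TRAC clonotypes of that library and was listed in no other under this name. Its CDR3 and J were listed under 4 V region names over all libraries. The Trav7d-2 clonotype with Traj33 held 859 UMIs (3.63%), with 7 UMIs in the αCSF1R tdLN and 3 in the αCSF1R spleen, and the Trav7-1 clonotype held 313 UMIs (1.32%). Trav7n-6 thus took 6.28% of TRAC UMIs in the αCSF1R tumor, with 0.497% to 0.952% in the other tumors and 0.476% to 0.832% over the spleen and tdLN libraries.

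The leading clonotype of the IL-10-Fc tumor was of another kind. Trav7d-2 with Traj22 and 1 added base held 1971 UMIs (1.99%, 1.91% to 2.08%), the most of any TRAC clonotype in that tumor, and it was listed in 11 of the 12 libraries, with 96 UMIs in the IL-10-Fc tdLN and 0 in the αCSF1R tumor. Its CDR3 and J were listed under 17 V region names over all libraries, so its V gene is less certain. Trav7n-4 with Traj22 held 403 UMIs (0.408%) and 21 in the tdLN of the same treatment. Both chains end in the same Traj22 bases. In the BF10 tumor the largest member clonotype had 77 UMIs (0.0654%), and it was listed in all 12 libraries.

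A clonotype with at least 0.1% of a library's TRAC UMIs was counted as expanded. Members made up 26 of 76 expanded clonotypes in the control IgG tumor, 21 of 79 in the αCSF1R tumor, 4 of 15 in the IL-10-Fc tumor and 0 of 3 in the BF10 tumor. These members held 12.7%, 14.7%, 2.71% and 0% of TRAC UMIs. Among UMIs outside expanded clonotypes, the members' share was 23.4% (control IgG), 23.0% (αCSF1R), 24.7% (IL-10-Fc) and 23.6% (BF10). The 4 tumors were thus nearly alike outside the expanded clonotypes, while the expanded ones differed in number and size.

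The control IgG and αCSF1R tumors each held a clonotype of Trav6d-6 with Traj2 that differed from the other in 2 of 51 bases, a pair chosen after its values were seen. They are shown for that likeness.

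Control IgG, Trav6d-6 with Traj2: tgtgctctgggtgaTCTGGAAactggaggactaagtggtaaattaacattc
αCSF1R, Trav6d-6 with Traj2: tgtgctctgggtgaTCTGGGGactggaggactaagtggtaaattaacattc

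The former had 816 UMIs (1.02%) and the latter 205 (0.867%), and each was listed in 1 library under this name.

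Treatments were compared within a tissue as ratios to control IgG, without a test. In spleen, 2 of 33 member names were at least 1.5-fold lower by UMIs with IL-10-Fc (4.31% of all names) and 0 higher (0.00%), 2 of 34 were higher with αCSF1R (1.72%) and 0 lower (0.862%), and with BF10 0 of 34 were higher (0.862%) or lower (1.72%). In tdLN, 1 of 34 was higher and 1 lower with IL-10-Fc (0.877% and 2.63% of all names), 2 and 1 of 31 with αCSF1R (4.55% and 6.36%), and 3 and 1 of 30 with BF10 (7.34% and 6.42%). Trav7n-4 was the member lower in all 3 tdLN comparisons, at 0.493% with control IgG and 0.283% to 0.306% otherwise. In tumor, 17 of 32 member names were higher and 7 lower with IL-10-Fc (43.6% and 19.1% of all names), 7 and 9 of 25 with αCSF1R (24.7% and 31.2%), and 18 and 9 of 33 with BF10 (49.6% and 20.4%).

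By clonotypes the tumor ratios shrank, with 4 of 28 members higher and 4 lower with IL-10-Fc (10 each of all 91 names), 2 and 0 of 10 with αCSF1R (9.52% each), and 3 and 3 of 28 with BF10 (8.33% each). In spleen and tdLN, 3 members in all passed 1.5-fold by clonotypes, each of them higher: Trav7d-2/Trav7d-3 in the αCSF1R spleen (1.80 times control IgG, 1.89% of all names), and Trav7-3 and Trav7-6 in the IL-10-Fc tdLN (1.56 and 1.65 times, 1.85%). With αCSF1R in tdLN 0 of 29 members were higher (0.00%) or lower (2.97%), and with BF10 0 of 29, against 1 and 5 of all 100 names. All of these ratios share the control IgG library of their tissue.

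Some α chains recurred across libraries, and the most widely shared of them used Trav7d-2. The first 5 by number of libraries and then by UMIs follow, with capitals as above.

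Trav7d-2 with Traj9: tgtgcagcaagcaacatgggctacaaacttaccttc
Trav7d-2 with Traj22, 36 bases: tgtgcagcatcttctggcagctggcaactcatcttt
Trav7d-2 with Traj22, 39 bases: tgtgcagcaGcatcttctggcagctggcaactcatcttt
Trav7d-2 with Traj21: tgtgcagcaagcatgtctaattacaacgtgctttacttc
Trav7d-2 with Traj30: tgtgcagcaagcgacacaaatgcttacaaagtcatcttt

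In 4 of the 5, every base is found in the germline V or J segment. The Traj9 chain was listed in 12 libraries with 712 UMIs in all, from 19 in the control IgG tumor to 128 in the αCSF1R spleen. The shorter Traj22 chain was listed in 12 libraries with 150 UMIs. The other 3 were listed in 11 libraries, with 2215, 222 and 194 UMIs, and each was missing from the αCSF1R tumor. That tumor had the fewest TRAC UMIs, and 3 UMIs there are 0.0127%.

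Of 105577 distinct member clonotypes, 205 were listed in 9 or more libraries, and 102 of these were Trav7d-2, 45 Trav7d-3 and 22 Trav6n-7. At least 6 libraries listed 0.667% of Trav6, 1.09% of Trav7 and 1.16% of all other TRAC clonotypes. Added bases were counted for 68979 distinct clonotypes of 19 single names with at least 100 clonotypes and their own germline start as the commonest. Joint names and Trav6-5 were left out, and counts for Trav7d-3 may be too high given its annotated V exon end. Counts for Trav6n-7, with 14184 clonotypes over the libraries, may also be too high, as only 57.9% kept the germline start. It averaged 4.80 added bases, against 3.18 to 3.98 in the other Trav6 names used, and the cause was not tested. Among these clonotypes, those in more libraries had fewer added bases. The share with no base outside the germline segments was 3.63% among Trav6 clonotypes of 1 library (n = 24156), 13.2% for 2 to 5 libraries (n = 4033), 39.4% for 6 to 8 (n = 208) and 62.5% for 9 to 12 (n = 40). In Trav7 it was 3.52%, 13.6%, 31.6% and 52.6%. The libraries differ in depth, as given above, and its part in these shares was not tested.

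Within a tissue, the share of clonotypes without added bases, among the same 19 names, varied little. In Trav6 it was 8.63% ± 0.926 (SD, n = 4) in spleen, 8.81% ± 0.420 in tdLN and 8.06% ± 1.19 in tumor. In Trav7 it was 10.1% ± 0.689, 9.58% ± 0.707 and 10.9% ± 0.275. The ranges of the tissues overlapped in Trav6, and no test was run. The mean number of added bases varied more between tumors. In Trav6 it was 5.33, 3.96, 5.01 and 3.97 in the 4 tumors, against 3.83 to 4.13 in spleen and tdLN. In Trav7 it was 4.21, 3.42, 5.60 and 3.32, against 3.25 to 3.49. The αCSF1R tumor means rest on 172 and 222 clonotypes. Of the members' combinations of CDR3 and J in a library, 2.16% to 6.59% were listed under more than 1 member name, up to 7, which counts such a chain more than once among clonotypes. These combinations held 11.6% (αCSF1R spleen) to 23.1% (control IgG tumor) of the members' UMIs in a library.

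The members joined the same J segments as the rest of the α chains, but in different shares. In the 4 spleen libraries, 26 of 41 Traj segments differed in share between member clonotypes and all other TRAC clonotypes (63.4%), 16 of them higher in the members (39.0%) and 10 lower (24.4%), by edgeR with library as a block. These counts cover all segments of the comparison, which is itself one of members against the rest. The fit pooled the 2 families, and Trav6 alone did not follow every call. By mean share, Trav6 lay below the other α chains in Traj15, Traj21, Traj33 and Traj6, which were called higher. For Traj15, Trav6 held 2.79% and Trav7 4.26%, against 3.23% in the other α chains. Trav6 lay above them in Traj22 and Traj52, which were called lower. In the remaining called segments both families lay on the side of the call. The commonest partners of Trav6 were Traj30 (6.68% of its clonotypes), Traj22 (6.47%) and Traj31 (6.0%), and those of Trav7 were Traj30 (6.28%), Traj26 (6.07%) and Traj22 (5.77%). Those of the other α chains were Traj22 (6.38%), Traj31 (5.38%) and Traj30 (5.30%). Traj30 and Traj26 were higher in the members, at log2 fold changes of 0.27 and 0.25.

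The segments that fell furthest lie at the V-proximal end of the J cluster. Traj58 made up 0.588% of Trav6 and 0.190% of Trav7 clonotypes against 1.12% of the others (log2 fold change -1.63, SE 0.08, adjusted p = 1.34e-07). Traj57 followed at -1.31, Traj56 at -1.11, Traj50 at -0.81 and Traj45 at -0.72. Of the 10 lower segments, 9 had a number of 45 or above, and the other was Traj22 at -0.07. The rises were smaller, led by Traj35 (0.34), Traj28 (0.32), Traj17 (0.30), Traj38 (0.29) and Traj9 (0.28). In tdLN 21 of these 26 calls were kept, and 1 turned. With TMM factors 11 segments were higher and 12 lower, and with DESeq2 4 and 9, so the balance of rises and falls depends on the scaling.

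**Figure D4:**
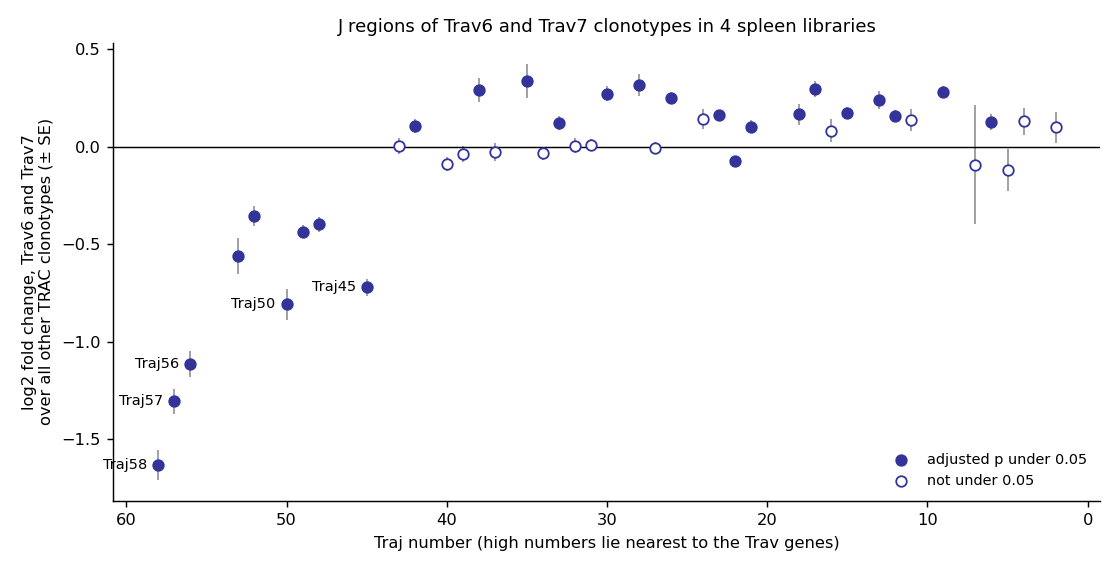
Log2 fold change in the share of each of 41 Traj segments, member clonotypes over all other TRAC clonotypes in 4 spleen libraries, by Traj number, with bars of 1 SE; filled points had an adjusted p under 0.05. Traj58, Traj57, Traj56, Traj50 and Traj45, at the V-proximal end, lie lowest, and the highest is Traj35 at 0.34.

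The mean Traj number tells how near to the V genes the J partners lie. In spleen it was 28.2 ± 0.197 for Trav6, 26.8 ± 0.149 for Trav7 and 29.4 ± 0.0488 for the other α chains (SD, n = 4), without overlap. In tdLN the means were 28.7, 27.1 and 30.1, and in tumor 28.1, 26.6 and 29.7. The order of the 3 sets was the same in each tissue.

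Names within a family differed more than the families did. Trav7-6, which lies 438 kb from the J cluster and is the nearest of all members, had a mean Traj number of 41.0 ± 0.740 in spleen, and 60.6% of its clonotypes used Traj40 or higher. The joint names Trav7d-6/Trav7n-6 and Trav7-6/Trav7n-6 had means of 40.5 and 39.1. Trav7n-6, 830 kb away, had a mean of 23.8 ± 0.311 and used Traj40 or higher in 9.83% of clonotypes, while Trav7d-6, 1134 kb away, had a mean of 40.3 ± 1.64. The V exons of Trav7d-6 and Trav7n-6 are identical in RefSeq, so the names split the clonotypes of 1 sequence into groups with unlike J partners. Chains under the name Trav7d-6 had J partners like those of Trav7-6, and the basis of the naming was not tested.

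Apart from number 6 of Trav7, means ran from 22.9 (Trav6n-6, 1022 kb) to 31.4 (Trav7-5, 624 kb) among names with at least 100 spleen clonotypes. Trav6n-7 had a mean of 30.7 and Trav6d-6 one of 30.2, and both used Traj40 or higher more often (29.1% and 23.5%) than Trav7d-2, at 25.1 and 11.3%. Trav6n-6 and Trav6n-7 are N copies that lie 1022 kb and 836 kb from the J cluster, and their means differed by more than the spread over libraries, which was 22.4 to 23.4 for the former and 30.2 to 31.2 for the latter. The mean Traj numbers of the names as listed did not follow the order of their distances, and the cause was not tested. The first 10 bases matched the germline in 57.9% of Trav6n-7 clonotypes and 83.1% of Trav6n-6 clonotypes, so the position of Trav6n-7 chains is less certain.

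**Figure D5:**
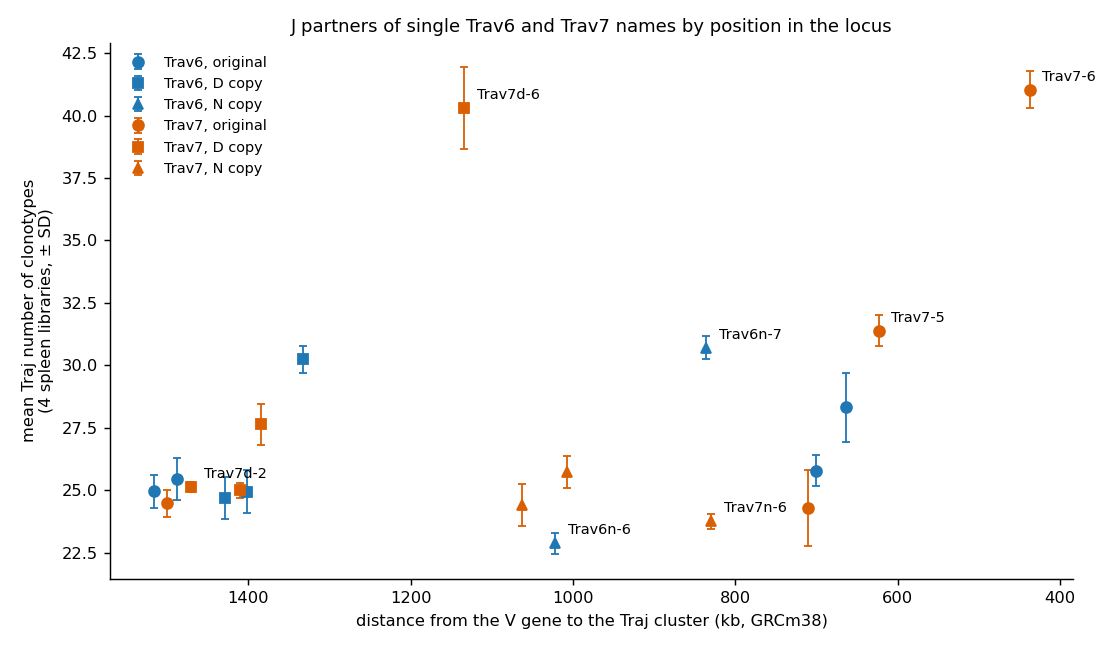
Mean Traj number of the clonotypes of each single member name with at least 50 spleen clonotypes (4 spleen libraries, bars of 1 SD over libraries) against its RefSeq distance to the J cluster in kb. Trav7-6 and Trav7d-6 lie at 41.0 and 40.3 and all other names at or below 31.4. Positions follow the listed names, which are uncertain for identical copies, Trav6-5 and Trav6n-7.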

How the data were processed

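RNA of CD8-selected T cells was made into UMI-tagged TCR libraries with a QIAseq kit, sequenced on a NextSeq instrument and processed by the authors in Qiagen's analysis portal; the germline reference and error correction are not given in the sources used here. The deposited files list, per library and chain, each clonotype with whole-number counts of UMIs that have at least 3 reads (also 4 to 7), and the authors' fraction of each clonotype within its library and chain, which was not used for values. The labels name the mouse build that RefSeq calls GRCm38.

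Shares were computed over all TRAC counts of a library. Tissues were compared with edgeR's (4.0.16) quasi-likelihood test, with treatment as a block, over 12 libraries and all TRAC families or V region names with at least 50 counts, TRAC totals as library sizes and Benjamini-Hochberg adjustment (called at an adjusted p under 0.05). J segments were tested in spleen with library as a block. DESeq2 (1.42.0), TMM factors, other minimums, merged clonotypes, left-out libraries and UMIs with at least 7 reads were alternatives. The scripts (Python 3.11.15, R 4.3.3) were tested on simulated counts of V region names in tdLN against spleen. By clonotypes the test found 91.5% of 2-fold and 74.5% of 1.5-fold changes. By UMIs it found 13.5% and 1.75%, so a lack of calls by UMIs does not show a lack of change. The deviations of same-treatment libraries from their tissue means correlated at -0.277 to 0.313.

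Treatments had 1 library per tissue, of RNA from 3 mice, and got ratios to control IgG past 1.5-fold, for names with at least 100 counts over both libraries. Depth was 23650 to 137078 TRAC UMIs per library. V exons and CDR3 starts were read from the RefSeq annotation of GRCm38.p6. The names discussed are both families, the copy classes, the top 3 names per family by mean UMI share in spleen and tdLN, up to 5 called names per test by size, and the names of the 3 largest tumor clonotypes per library; J segments were the top 3 per family and up to 5 called in each direction, and shared chains the top 5. The members and lists were chosen with earlier results of these data known.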

Additional observations from a re-analysis of the deposited data

Results flagged for a closer look

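In 13 of 156 groups of 4 libraries, 1 library lay apart from the other 3 of its tissue. The limit was Dixon's 95% critical value for the gap over the range. Independent groups not chosen by their values would pass it in about 1 of 20. These groups overlap, and their names were picked from the same values, among them those of the largest tumor clonotypes. The count therefore cannot be set against that rate. In the control IgG tumor the flagged values were Trav6-4 with 2.73% of TRAC UMIs, the original Trav6 genes together with 3.69%, and Trav7d-4 with 2.92%. In the αCSF1R tumor they were Trav7n-6 with 6.28% of TRAC UMIs and Trav7d-6 with 0.554%. In the IL-10-Fc tumor, Trav7d-2/Trav7d-3 held 0.233% of TRAC clonotypes.

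In tdLN, Trav7 was low with BF10 at 14.8% of TRAC UMIs, Trav7d-3 was low with BF10 at 1.78% of TRAC clonotypes, Trav7n-4 was high with control IgG at 0.493% of TRAC UMIs, and Trav7-5 was high with IL-10-Fc at 1.21% of TRAC UMIs. In spleen, Trav6d-6 was high with BF10 at 1.82% of TRAC clonotypes, Trav7 joint names were low with BF10 at 3.59%, and Trav6n-7 was low with IL-10-Fc at 2.52%.

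Outside the α chain lists, Trav6-7-dv9, a V gene that can join to the α or the δ constant region, was listed in δ chains (TRDC) with 69 UMIs and 41 clonotypes over 8 libraries. It took 0.0469% to 0.609% of TRDC UMIs there. The other 4 libraries listed 0, which allows shares of up to 0.125% to 0.344%.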

How the results depend on the processing

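Log2 fold changes follow. For Trav6 UMIs in tdLN against spleen, 0.248 passed without the tumor libraries (adjusted p = 0.00209) and 0.248 without the control IgG and αCSF1R tumors (adjusted p = 0.00147), and for Trav7 these were 0.175 (adjusted p = 0.00713) and 0.174 (adjusted p = 0.0183). For Trav7 clonotypes, 0.191 passed with TMM factors (adjusted p = 0.0251), 0.0831 without the tumor libraries (adjusted p = 0.0182) and 0.083 without those 2 tumors (adjusted p = 0.0129). Trav6 clonotypes were 0.103 without the tdLN αCSF1R and BF10 libraries (adjusted p = 0.347) and 0.155 to 0.221 without 1 library. In tumor against spleen, Trav6 UMIs changed sign with TMM factors (0.0318), DESeq2 (0.166), at least 7 reads (0.00926) and without the largest clonotype (0.0288), and ran from -0.192 to 0.134 without 1 library; Trav6 clonotypes changed sign without those 2 tumors (-0.00954) and ran from -0.0125 to 0.0609. Member names called by UMIs in tdLN, with the share of all names in parentheses, numbered 1 with DESeq2 (6.04%), 10 without the tumor libraries (25.7%) and 10 without those 2 tumors (26.2%). By clonotypes there were 10 with no replicate block (30.6%; treatment as the pairing), 11 at 7 or more reads (27.8%; 4 higher, 7 lower), 3 with each CDR3 and J under 1 V name (18.6%), 13 without the tumor libraries (38.9%), 17 without those 2 tumors (44.2%), 0 without the tdLN αCSF1R and BF10 libraries (0%), and 1 to 11 without 1 library (11.7% to 33.3%). DESeq2 called 4 J segments higher. Dropping the block changed neither the Trav6 nor the Trav7 call.

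The cause of these changes was not tested. The 3 settings that leave out several libraries were chosen after seeing the data. Another 265 recomputed main values and 175 values of single names or segments kept their direction and side of the threshold, and a further 59 values of single names or segments kept only their direction. Precision is limited by 4 mixed libraries per tissue and by the 2430 TRAC clonotypes of the αCSF1R tumor.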
